A study of Homo sapiens with 18 samples.

Results

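The comparison described here asks what a guide RNA against POU2F3 still does to the transcriptome of NCI-H211 cells when a wild-type POU2F3 cDNA that the guide cannot cut is present. NCI-H211 is a long-cultured human line from a small cell lung cancer, and it belongs to the tuft-like subtype that depends on POU2F3. RNA was read from 18 libraries in 6 groups of 3, and the comparison uses 6 of them: 3 WT sgPOU2F3 libraries against 3 WT sgRosa libraries. All cells carried Cas9 and were collected 5 days after lentiviral infection. WT sgPOU2F3 cells stably expressed the wild-type cDNA and received the guide against the endogenous gene. WT sgRosa cells carried the same cDNA and received the control guide, sgRosa. The matching empty-vector groups, EV sgPOU2F3 and EV sgRosa (3 libraries each), had the same guides and no cDNA, and the remaining 6 libraries, with the L191A cDNA, are not compared here. Each construct was 1 stable line and the replicates were separate infections of it, so p-values measure the spread between infections. Of 19744 gene entries, the 13151 with a mean of at least 1 TPM (a relative transcript abundance corrected for length) over the 6 libraries were tested.

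POU2F3 is a POU-domain transcription factor that binds the octamer motif and is the master regulator of tuft cells, the rare chemosensory cells of airway and gut epithelium. It works with small coactivators, POU2AF2 and POU2AF3, listed in the table under their older symbols C11orf53 and COLCA2. Tuft cells use taste-type signalling, in which a receptor acts through a G protein and phospholipase C on the cation channel TRPM5, and they make eicosanoids and the cytokine IL-25. YAP and TAZ, the coactivators that the Hippo pathway restrains, act through TEAD factors on genes such as CYR61 and CTGF.

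The upstream sequences of 6 genes on which the results below turn are given first. Each is the 250 bases before the transcript start in RefSeq (GRCh38.p14), read 5′ to 3′ on the gene's strand. The first 4 belong to the bitter taste receptors that fell and to ELF3, an epithelial transcription factor that rose. Capitals mark the octamer, ATGCAAAT or its reverse complement.
TAS2R3 (chr7:141763847-141764096, plus strand): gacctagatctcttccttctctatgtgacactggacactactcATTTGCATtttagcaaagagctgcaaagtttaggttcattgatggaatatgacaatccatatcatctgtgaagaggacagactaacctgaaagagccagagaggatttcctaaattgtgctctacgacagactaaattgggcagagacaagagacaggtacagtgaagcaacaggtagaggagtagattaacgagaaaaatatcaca
TAS2R5 (chr7:141789967-141790216, plus strand): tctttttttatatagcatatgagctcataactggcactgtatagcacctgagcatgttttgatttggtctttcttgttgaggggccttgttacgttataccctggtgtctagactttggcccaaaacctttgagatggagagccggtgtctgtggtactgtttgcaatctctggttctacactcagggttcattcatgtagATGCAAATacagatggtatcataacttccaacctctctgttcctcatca
TAS2R60 (chr7:143443203-143443452, plus strand): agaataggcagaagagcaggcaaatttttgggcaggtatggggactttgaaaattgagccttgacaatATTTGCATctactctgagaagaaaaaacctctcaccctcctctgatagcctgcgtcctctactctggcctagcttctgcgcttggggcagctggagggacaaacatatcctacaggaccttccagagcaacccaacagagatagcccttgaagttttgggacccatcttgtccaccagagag
ELF3 (chr1:202010337-202010586, plus strand): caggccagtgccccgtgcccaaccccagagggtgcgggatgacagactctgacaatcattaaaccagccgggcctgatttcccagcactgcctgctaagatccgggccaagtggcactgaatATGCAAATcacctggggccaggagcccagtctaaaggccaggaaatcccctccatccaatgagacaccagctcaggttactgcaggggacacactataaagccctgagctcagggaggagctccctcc
The other 2 belong to genes of the YAP and TAZ list that rose, and capitals mark GGAATG, the core letters of the TEAD motif.
CTGF (chr6:131951373-131951622, minus strand): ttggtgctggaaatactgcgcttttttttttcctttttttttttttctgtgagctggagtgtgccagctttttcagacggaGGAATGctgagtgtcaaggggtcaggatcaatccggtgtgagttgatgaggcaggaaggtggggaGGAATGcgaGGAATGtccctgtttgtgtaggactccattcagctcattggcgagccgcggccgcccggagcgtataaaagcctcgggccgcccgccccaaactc
ANKRD1 (chr10:90921088-90921337, minus strand): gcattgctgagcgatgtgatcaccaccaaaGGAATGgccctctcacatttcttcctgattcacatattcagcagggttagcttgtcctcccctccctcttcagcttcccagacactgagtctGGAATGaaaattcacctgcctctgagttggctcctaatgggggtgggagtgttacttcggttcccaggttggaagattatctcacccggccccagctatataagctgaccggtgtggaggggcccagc
Counted from the transcript start, the octamer began at position -207 in TAS2R3, -49 in TAS2R5, -182 in TAS2R60 and -128 in ELF3. GGAATG began at -169, -104 and -95 in CTGF and at -220 and -128 in ANKRD1. No octamer and GGAATG overlapped in these windows.

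1 library stood apart. WT sgPOU2F3 replicate 1 gave 32.8% of its TPM to cytosolic ribosomal proteins, against 26.4% and 25.3% in the other 2 WT sgPOU2F3 libraries and 17.6%, 22.3% and 22.5% in the WT sgRosa libraries. Long transcripts were also read low in it. All values below are therefore TPM scaled by the median ratio to the other libraries. Counts for most described lists, and medians for some of them, are given with and without that library. In bulk RNA, fewer cells of a kind and less RNA per cell cannot be told apart. The labelled cell type was present: all 10 tuft-type markers (POU2F3, TRPM5, AVIL, ASCL2, SOX9, GFI1B, RGS13, SH2D6, BMX and KIT) had a mean of at least 1 TPM. Of 8 neuroendocrine markers 2 reached 1 TPM, DLL3 (11.7 to 23.0 TPM) and INSM1 (1.25 to 6.37 TPM), while the factor NEUROD1 was at most 0.158 TPM in any library. Of the markers of other cells, 0 of 4 endothelial, 3 of 7 lymphoid and myeloid and 4 of 5 fibroblast genes reached 1 TPM. The summed fibroblast markers were at most 20.0 TPM in any library (deposited TPM).

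With all 6 libraries, limma called 538 genes at an adjusted p under 0.05, 4.09% of those tested: 261 were higher with sgPOU2F3 (1.98%) and 277 lower (2.11%). Changes of 2-fold or more made up 141 of the rises and 82 of the falls. Without WT sgPOU2F3 replicate 1 the counts were 2271 higher (17.3%) and 1853 lower (14.1%), 31.4% in all, and all 538 genes were among them in the same direction. Genes past 2-fold were then fewer, 105 higher and 53 lower, so most of the added calls were small changes. Leaving out 1 sgRosa library went the other way: 61 higher and 22 lower without replicate 1, 76 and 26 without replicate 2, and 62 and 21 without replicate 3. Without sgPOU2F3 replicate 2 the counts were 89 and 97, and without sgPOU2F3 replicate 3 they were 2365 and 1992. List counts given below for these fits stand against these totals, out of 13151 genes. Of the 72 genes called with all 6 libraries among those named by rule, 36 stayed called whichever library was left out, and 29 lost the call without any 1 of the sgRosa libraries. Genes that rose had a median transcript length of 868 bases and genes that fell 1902 bases, against 1048.5 bases for all genes with a length. With each library's trend against length removed, 521 genes rose (4.06%) and 438 fell (3.41%), 7.47% in all, and these held 252 of the 258 rises and 227 of the 263 falls that had a length.

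**Figure D1:**
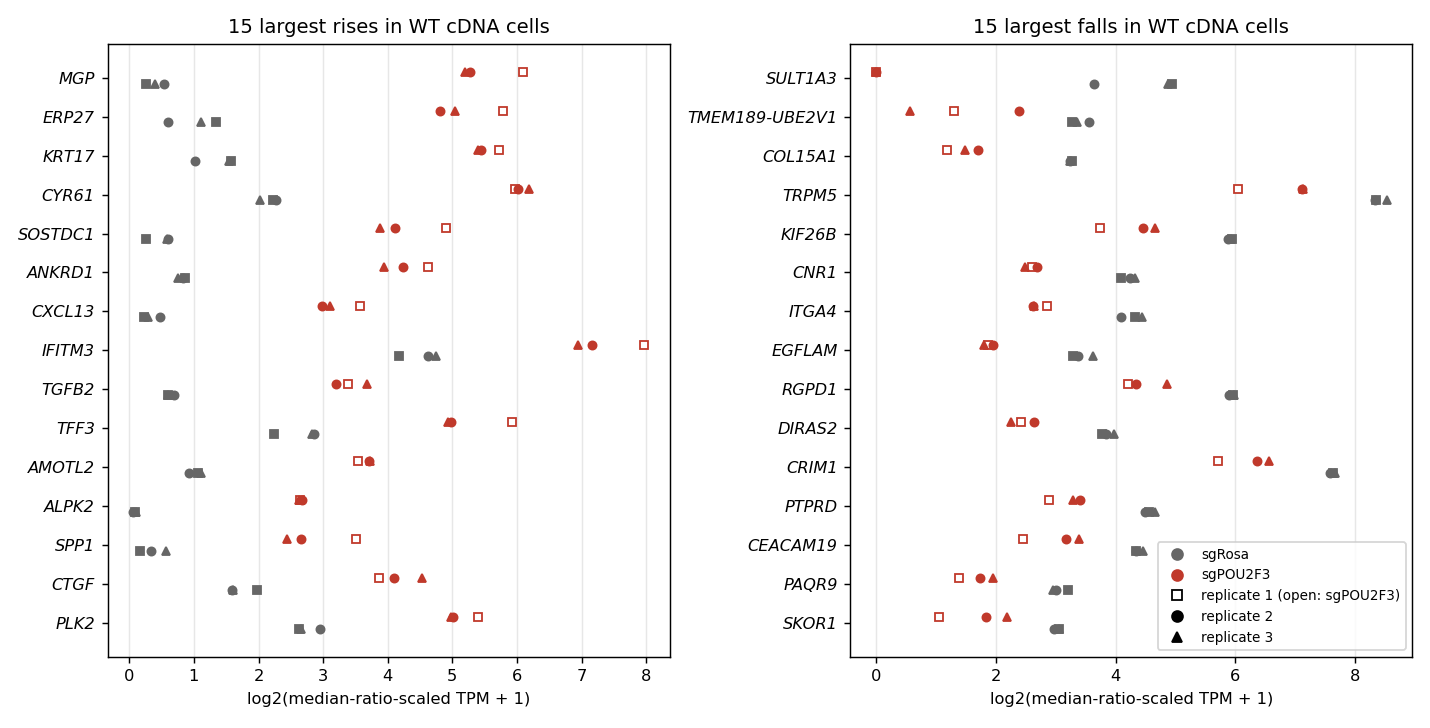
Level of the 15 largest rises (left) and falls (right) in each of the 6 WT libraries, as log2(scaled TPM + 1), with sgRosa in grey, sgPOU2F3 in red and symbols for the replicates. The open squares are WT sgPOU2F3 replicate 1. No sgPOU2F3 point overlaps the sgRosa points of its gene, which the naming rule required.

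The targeted gene was read in every library first. POU2F3 (chr11:120236640-120319944, plus strand, GENCODE on GRCh38) stood at 1314, 1672 and 1597 scaled TPM in WT sgRosa and at 1736, 1348 and 1064 in WT sgPOU2F3. These groups overlapped, with a log2 change of -0.17 ± 0.26 (SE, n = 3 and 3; adjusted p = 0.626), and the value was -0.34 without replicate 1 (adjusted p = 0.204). In empty-vector cells the gene went from 652, 655 and 716 with sgRosa to 288, 293 and 292 with sgPOU2F3, a log2 change of -1.21 (adjusted p = 0.000193). The 2 changes differed by 1.03 (limma interaction, adjusted p = 0.0109). The call in WT cells depended on the scaling. On TPM as deposited the WT groups did not overlap, at 1701, 1880.5 and 1796 with sgRosa and 1136, 1276 and 1049 with sgPOU2F3, and POU2F3 was called lower (-0.64, adjusted p = 0.0444), as it was with quantile normalization (-0.86, adjusted p = 0.00573). The table has 1 value per gene, so transcript from the cDNA and from the endogenous locus cannot be told apart.

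With sgRosa, the empty-vector line held less POU2F3 than the WT line, in all 3 sgRosa libraries of each. C11orf53 was at 556, 543 and 535 scaled TPM with sgRosa and 718, 513 and 528 with sgPOU2F3, and the groups overlapped. COLCA2 was at 9.07, 11.6 and 13.1 against 10.5, 13.2 and 10.3, also overlapping. In empty-vector cells both fell with sgPOU2F3, C11orf53 by 0.93 and COLCA2 by 0.75 on the log2 scale, and the difference between lines was 1.00 (adjusted p = 0.00503) for C11orf53 and 0.76 (adjusted p = 0.0167) for COLCA2. The related octamer factor POU2F1 was at 7.0, 6.87 and 6.72 with sgRosa and 4.08, 5.98 and 5.00 with sgPOU2F3, lower in all 3 libraries, and missed the threshold at a log2 change of -0.40 ± 0.15 (SE, n = 3 and 3; adjusted p = 0.0819). POU2AF1, the B-cell coactivator of the family, was near 1 TPM. With median-ratio scaling none of the 5 octamer family members tested passed with all 6 libraries, where 4.09% of all genes did, nor in any fit that left out 1 library. On TPM as deposited 1 was called lower, POU2F3, and with quantile normalization 2 were, POU2F3 and C11orf53, the latter at -0.49 (adjusted p = 0.0287) against a median-ratio value above 0.

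Among 12 tuft transcription factors and coactivators, 3 rose and none fell, where 1.98% and 2.11% of all genes did, and the list median was 0.05 against -0.018 for all genes. ELF3, an ETS factor of differentiated epithelium, was at 38.9, 54.9 and 52.6 scaled TPM with sgRosa and 169, 139.7 and 108 with sgPOU2F3. Its groups did not overlap, and it had a log2 change of 1.48 ± 0.20 (SE, n = 3 and 3; adjusted p = 0.00917). EHF, a closely related ETS factor, rose from 12.5, 13.9 and 14.5 to 32.8, 23.2 and 20.1, by 0.82 on the log2 scale (adjusted p = 0.0488). SPIB, an ETS factor shared by tuft and lymphoid cells, rose from 38.0, 38.1 and 41.7 to 69.9, 63.4 and 69.9, by 0.77 (adjusted p = 0.0147). MYB was at 29, 30.6 and 33.2 against 54.5, 44.9 and 41.8 and narrowly missed the threshold (0.58, adjusted p = 0.0511). Without replicate 1 the list had 4 rises and 3 falls (17.3% and 14.1% of all genes), with MYB among the rises at 0.48 (adjusted p = 0.00697), and without sgRosa replicate 1 or 3 it had neither.

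In empty-vector cells the same list moved differently, with 2 members higher and 6 lower (19.3% and 19.7% of all genes). MYB fell there by 0.79 and differed from its value with the cDNA by 1.36 (adjusted p = 5.25e-05). EHF differed by 1.01 (adjusted p = 0.00778) and ELF3 by 0.96 (adjusted p = 0.011). SPIB rose in both lines, by 1.05 in empty-vector cells, and the difference missed the threshold (-0.30, adjusted p = 0.0985). The lines also stood apart with sgRosa, which was not tested. In EV sgRosa, ELF3 was at 127, 129 and 106 scaled TPM and MYB at 126, 132 and 134, above the WT sgRosa libraries. EHF, at 6.49, 7.57 and 8.30, and SPIB, at 22.0, 19.8 and 20.8, lay below them. The ELF3 values of WT sgPOU2F3 overlapped those of EV sgRosa.

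In taste-type signalling the changes were falls. Of 14 members tested, 6 fell (42.9%, against 2.11% of all genes) and none rose, with a list median of -0.62, which was -0.63 without replicate 1. TRPM5, the channel at the end of the pathway (chr11:2404515-2423045, minus strand), was at 326, 321 and 368 scaled TPM with sgRosa and 65.1, 138 and 138 with sgPOU2F3. The lowest sgPOU2F3 value was that of replicate 1, and the groups did not overlap, with a log2 change of -1.64 ± 0.28 (SE, n = 3 and 3; adjusted p = 0.0249) and -1.28 without replicate 1 (adjusted p = 0.000217). TAS1R3, the shared subunit of the sweet and umami receptors, fell from 82.1, 89.3 and 102 to 30.6, 48.8 and 48.2, by 1.10 on the log2 scale (adjusted p = 0.0276). GNG13, the gamma subunit of the taste G protein, fell from 126, 125 and 95.9 to 67.2, 45.9 and 64.1, by 0.96 (adjusted p = 0.0358). CALHM1, a subunit of the ATP-release channel of taste cells, fell from 18.9, 17.4 and 17.6 to 9.63, 9.94 and 9.09, by 0.84 (adjusted p = 0.00872).

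The other 2 members that fell, named after their values were seen, were the beta subunit GNB3 (-0.79, adjusted p = 0.0374) and the phospholipase PLCB2 (-0.96, adjusted p = 0.0488). Without replicate 1 the list had 9 falls of 14 and no rise, where 14.1% of all genes fell. Leaving out any 1 of the sgRosa libraries left 0 falls, where 21 to 26 of all 13151 genes fell. Leaving out sgPOU2F3 replicate 2 left 2, where 97 of all genes fell. Without any 1 sgRosa library TRPM5 kept its size, from -1.68 to -1.58, at adjusted p values of 0.0958 to 0.129. In empty-vector cells, where 39.0% of all genes were called, 10 of the 14 fell and 1 rose, with a median of -1.27. The TRPM5 change there was -1.91, from 249.3, 229.8 and 277 to 57.5, 86.7 and 57.4, and the difference from the cDNA line was not called (0.26 ± 0.36 SE, adjusted p = 0.62). Without WT sgPOU2F3 replicate 1 it was called, at 0.62 (limma interaction, adjusted p = 0.0488), with the smaller fall in the cDNA line. For GNG13 the difference was called: it fell by 2.21 in empty-vector cells, 1.23 more than with the cDNA on the log2 scale (adjusted p = 0.00199). Its sgRosa level was 291, 280.0 and 310.1 in empty-vector cells, above all WT libraries, a difference that was not tested here.

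Bitter taste receptors are G protein-coupled receptors that tuft cells and taste cells use to sense bitter compounds. Of 18 tested, 3 fell and none rose with all 6 libraries, where 2.11% of all genes fell. TAS2R5 was the most abundant of these, at 61.3, 58.8 and 61.3 scaled TPM with sgRosa and 33.6, 39.6 and 40.6 with sgPOU2F3, a log2 change of -0.66 (adjusted p = 0.0336). TAS2R60 was at 17.0, 15.5 and 16.4 against 11.2, 7.07 and 5.75, a change of -0.99 (adjusted p = 0.0466). TAS2R3 was at 2.63, 2.97 and 3.72 against 0.592, 1.34 and 0.557, a change of -1.18 (adjusted p = 0.0206). In all 3 the groups did not overlap. Without replicate 1, 7 of 18 fell (14.1% of all genes). Without any 1 sgRosa library none did, where 21 to 26 of all 13151 genes fell. Without sgPOU2F3 replicate 2 only 1 did, where 97 of all genes fell.

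In empty-vector cells 15 of the 18 fell, where 19.7% of all genes did, with a median of -1.02 against -0.22 with the cDNA, and the 2 responses differed for 10 of them, each time toward higher values with the cDNA, as for 12.8% of all genes. TAS2R60 showed this most among the named receptors: it went from 20.6, 21.3 and 28.4 scaled TPM to 1.07, 0.888 and 0.979 in empty-vector cells, a change of -3.61, and the difference was 2.61 (adjusted p = 3.21e-05). TAS2R5 changed by -1.24 there, a difference of 0.56 (adjusted p = 0.0149). For TAS2R3 the difference missed the threshold (-0.66 ± 0.38 SE, adjusted p = 0.212).

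The octamer was searched on both strands in 300-base windows (250 bases before to 50 after the start). It lay in 158 of the 10597 tested genes with a RefSeq window, 1.49%. Among genes that rose it lay in 5 of 221 windows (2.26%), ELF3 included, and among genes that fell in 4 of 208 (1.92%), of which TAS2R3, TAS2R5 and TAS2R60 were 3. Of the 18 bitter receptors tested, 14 had a window and 7 of these held the octamer. The other 4 receptors with the octamer were not called: TAS2R7 at 0.32, TAS2R9 at 0.014, TAS2R10 at 0.17 and TAS2R13 at 0.018 on the log2 scale. Without replicate 1, 3 of the 6 falling receptors with a window held it. A match describes letters in a window and not a bound site.

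**Figure D2:**
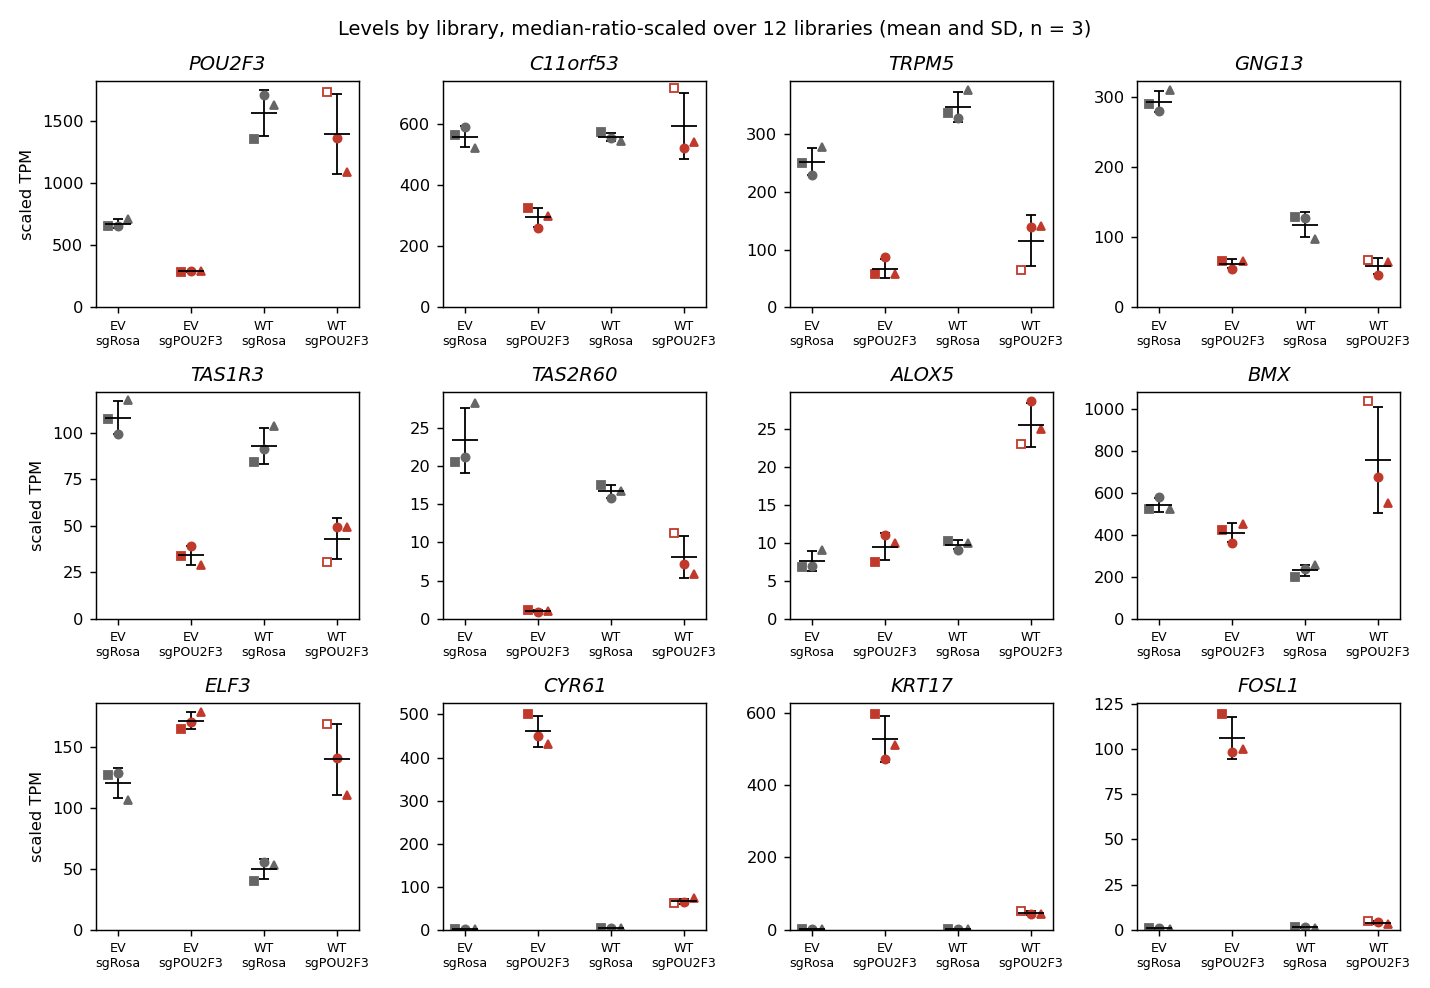
Scaled TPM of 12 genes in the empty-vector (EV) and WT cDNA libraries, with the mean and SD of 3 libraries per group as a bar and each library as a point. POU2F3 and C11orf53 are lowest in the EV sgPOU2F3 group, TRPM5, GNG13 and TAS1R3 are low in both sgPOU2F3 groups, and ALOX5 is high only in WT sgPOU2F3.

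Other tuft markers went both ways. Of 37 tested (POU2F3 left out), 5 rose and 4 fell, 13.5% and 10.8%, against 1.98% and 2.11% of all genes. BMX, a Tec-family kinase of tuft cells, was at 193, 231 and 248.9 scaled TPM with sgRosa and 1038, 667 and 538 with sgPOU2F3. Its groups did not overlap, replicate 1 was the highest, and it had a log2 change of 1.68 ± 0.26 (SE, n = 3 and 3; adjusted p = 0.0146) and 1.43 without replicate 1 (adjusted p = 0.000691). In empty-vector cells BMX went from 523, 577 and 522 to 422, 359 and 449, so the 2 responses differed by 2.07 (adjusted p = 0.000392). ALOX5, the 5-lipoxygenase that starts leukotriene synthesis, rose from 9.92, 8.90 and 9.80 to 23.1, 28.4 and 24.4, with a log2 change of 1.32 ± 0.13 (SE, n = 3 and 3; adjusted p = 0.00186). It held its call whichever library was left out, and it differed from its empty-vector change of 0.28 by 1.02 (adjusted p = 0.00454).

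CD24, a small glycosylated surface protein, rose from 3.48, 2.51 and 2.16 to 7.29, 6.92 and 7.55, by 1.17 on the log2 scale (adjusted p = 0.00863), and it shares sequence with processed copies, so its level is less certain. IL13RA1, a receptor chain for IL-13, rose by 0.88 (adjusted p = 0.015) and was named after its value was seen, as was DCLK1, a microtubule-associated kinase used as a tuft marker in mouse, which fell (-1.25, adjusted p = 0.0153). The other 3 that fell were TRPM5, GNG13 and PLCB2, all of the taste pathway. The list median was 0.22 with all 6 libraries and 0.12 without replicate 1, and it was -0.25 on TPM as deposited and -0.13 with quantile normalization, so no direction is given for the list. Without replicate 1, 11 rose and 10 fell (17.3% and 14.1% of all genes). Without sgRosa replicate 1 there were 2 rises and no fall, and without sgRosa replicate 2 or 3 only 1 rise. In empty-vector cells 3 rose and 21 fell (19.3% and 19.7% of all genes), with a median of -0.65, and 22 of the 37 differed toward higher with the cDNA and 1 toward lower, where 12.8% and 14.2% of all genes did.

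Eicosanoid synthesis had 1 rise, ALOX5, among 10 genes and no fall (1.98% and 2.11% of all genes). Without replicate 1 it had 3 rises and no fall (17.3% and 14.1% of all genes). PLA2G4A, the phospholipase that frees arachidonic acid, was at 10.9, 12.7 and 12.8 scaled TPM with sgRosa and 25.9, 18.6 and 17.4 with sgPOU2F3, just past the threshold on the side of no call (adjusted p = 0.051). It fell in empty-vector cells, from 62.9, 73.8 and 75.2 to 34.8, 26.2 and 36.9, and the responses differed by 1.79 (adjusted p = 0.000186). PTGS1, cyclooxygenase-1, was at 15, 13.5 and 13.5 against 19.3, 16 and 19.4 (0.36, adjusted p = 0.0785). LTA4H, which makes leukotriene B4, was at 175, 179 and 146 against 284, 178 and 180.5 (0.33, adjusted p = 0.249), with overlapping groups.

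The largest rises were in genes that were near 0 with sgRosa. MGP, matrix Gla protein (chr12:14881181-14885926, minus strand), went from 0.203, 0.444 and 0.322 scaled TPM to 67.5, 37.7 and 35.8, with a log2 change of 5.12 ± 0.23 (SE, n = 3 and 3; adjusted p = 5.69e-05). KRT17, a keratin of basal and injured epithelium, went from 1.97, 1.01 and 1.90 to 51.7, 42.3 and 41.3, with a log2 change of 4.15 ± 0.18 (SE, n = 3 and 3; adjusted p = 5.69e-05). CYR61 (chr1:85580761-85583962, plus strand), a matricellular protein and a standard YAP target, went from 3.69, 3.82 and 3.07 to 61.5, 63.4 and 71.5, with a log2 change of 3.88 ± 0.13 (SE, n = 3 and 3; adjusted p = 1.17e-05). ERP27, a protein of the endoplasmic reticulum, went from 1.54, 0.519 and 1.15 to 53.8, 27.2 and 32.0 (4.19, adjusted p = 0.000262). In each of these 4 genes the lowest sgPOU2F3 library was several times the highest sgRosa library. The log2(TPM + 1) scale understates the change of genes this low.

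The next rises were secreted factors and kinases. SOSTDC1, a BMP and Wnt antagonist, went from 0.202, 0.513 and 0.506 to 28.8, 16.3 and 13.8 scaled TPM (3.82, adjusted p = 0.000262). CXCL13, a chemokine for B cells, went from 0.175, 0.386 and 0.224 to 10.8, 6.93 and 7.59 (2.89, adjusted p = 0.000189). TFF3, a trefoil peptide of mucus-secreting cells, went from 3.73, 6.27 and 6.07 to 59.5, 30.6 and 29.7 (2.64, adjusted p = 0.00282). SPP1, osteopontin, went from 0.127, 0.259 and 0.481 to 10.4, 5.29 and 4.44 (2.51, adjusted p = 0.00279). ALPK2, an alpha-kinase, was nearly absent with sgRosa at 0.0622, 0.0432 and 0.0753 and close to 5 TPM in every sgPOU2F3 library, at 5.22, 5.35 and 5.16. PLK2, a polo-like kinase and p53 target, went from 5.19, 6.73 and 5.30 to 41.2, 31.3 and 30.5 (2.39, adjusted p = 0.000265).

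The 15 largest rises spanned log2 changes of 2.39 to 5.12, with adjusted p no larger than 0.00282. Each was called in every fit that left out 1 library and with the length trend removed, where the largest adjusted p was 0.00161. Of these fits, the naming rule required the call only in that without sgPOU2F3 replicate 1. Of the 15, 14 also passed the test in empty-vector cells, and 13 differed between the lines, where 39.0% and 27.0% of all genes did. TFF3 was the one not called there: it was at 80.4, 101 and 59.4 scaled TPM with sgRosa and 55.8, 38.7 and 56.1 with sgPOU2F3 in empty-vector cells, so the WT sgRosa libraries, at 3.73, 6.27 and 6.07, were the low ones among the 4 groups. Its response differed by 3.28 (adjusted p = 0.000125). SOSTDC1 and CXCL13 rose more with the cDNA than without it, by 1.54 (adjusted p = 0.00321) and 1.66 (adjusted p = 0.0078). MGP and ERP27 rose in both lines, and their differences missed the threshold (0.80, adjusted p = 0.0722, and 0.78, adjusted p = 0.108).

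**Figure D3:**
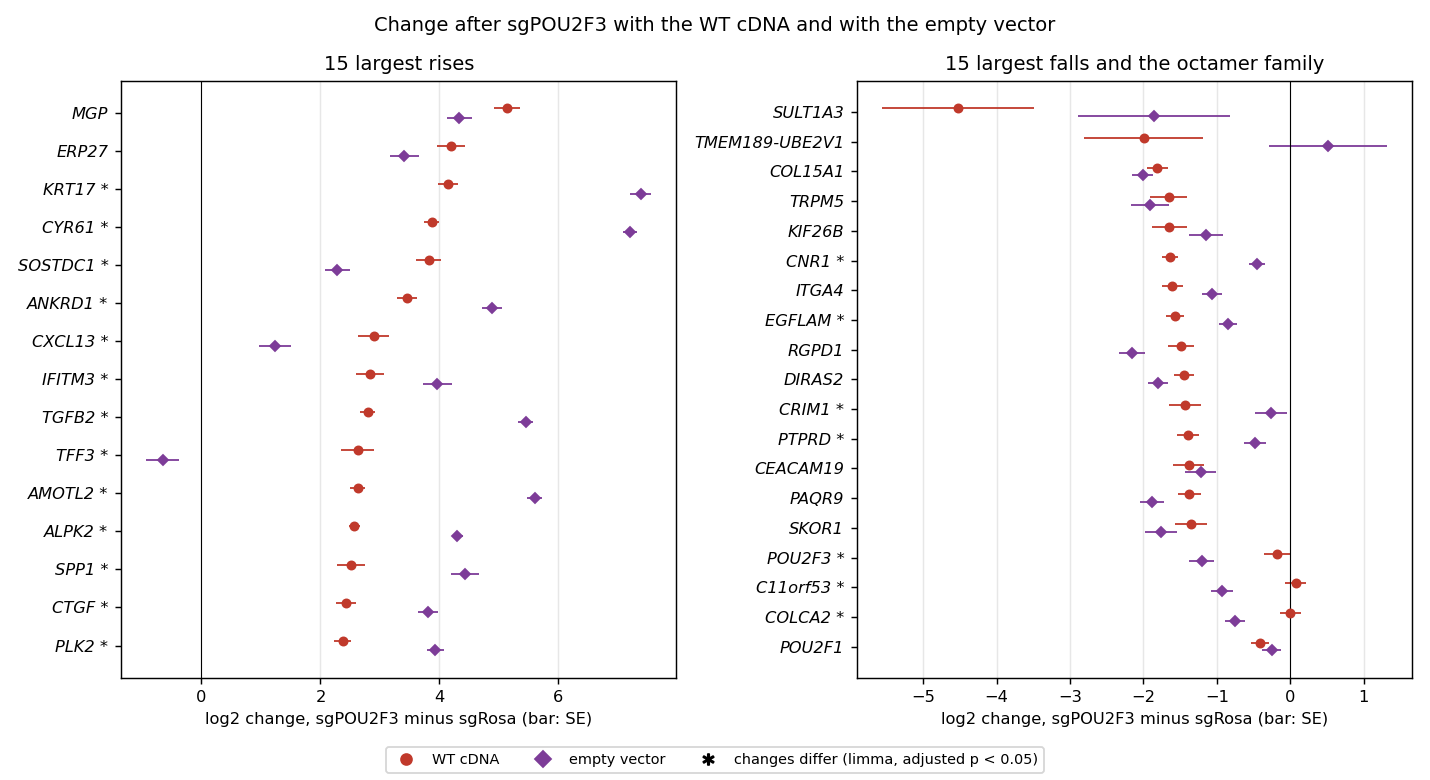
Log2 change after sgPOU2F3 with its SE in WT cDNA cells (red circles) and empty-vector cells (purple diamonds), both from the fit to 12 libraries, for the 15 largest rises (left) and for the 15 largest falls and 4 octamer family genes (right). A star marks the genes whose changes differ; KRT17, CYR61, TGFB2 and AMOTL2 rise further in empty-vector cells, and TFF3, SOSTDC1 and CXCL13 rise further in WT cells.

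Of 20 YAP and TAZ targets tested, 8 rose and 1 fell with all 6 libraries, where 1.98% and 2.11% of all genes did. Without replicate 1 these were 9 and 2 (17.3% and 14.1% of all genes), and the rises stayed at 7 or 8 without any other single library except sgPOU2F3 replicate 3, where they were 9. Beside CYR61, AMOTL2, an angiomotin that binds YAP, went from 1.09, 0.907 and 1.17 scaled TPM to 10.7, 12.1 and 12.3 (2.63, adjusted p = 5.70e-05). ANKRD1 went from 0.81, 0.782 and 0.684 to 23.6, 17.9 and 14.3 (3.45, adjusted p = 8.15e-05). CTGF, the close relative of CYR61, went from 2.93, 2.00 and 2.06 to 13.6, 16.1 and 22.0 (2.44, adjusted p = 0.000782). TGFB2, a TGF-beta ligand, went from 0.507, 0.609 and 0.512 to 9.39, 8.14 and 11.8 (2.79, adjusted p = 0.000107).

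The list median was only 0.07, since the 11 members that did not pass lay on both sides of 0. Without replicate 1 the median was 0.20. In empty-vector cells 15 of the 20 rose (19.3% of all genes), with a median of 2.49, and 16 of the 20 differed, all toward a smaller value with the cDNA (14.2% of all genes). CYR61 reached 501, 450.2 and 431 scaled TPM there, from 2.10, 2.56 and 1.78, a difference of -3.33 between the lines (adjusted p = 1.39e-07). AMOTL2 differed by -2.97 (adjusted p = 3.32e-07), TGFB2 by -2.66 (adjusted p = 1.24e-06) and CTGF by -1.38 (adjusted p = 0.00159). CRIM1, the member that fell, is described with the falls. GGAATG, on either strand, lay in 6 of the 15 listed targets with a RefSeq window (40.0%) and in 4 of the 7 that rose (57.1%), against 10.8% of all windows, and CTGF and ANKRD1 above are 2 of these.

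Of 19 Hippo pathway components, 2 rose and 1 fell, where 1.98% and 2.11% of all genes did. Without replicate 1, 3 rose and 4 fell (17.3% and 14.1% of all genes). TEAD2, a DNA-binding partner of YAP, rose from 48.0, 47.3 and 54.3 scaled TPM to 76.5, 88.0 and 89.2 (0.75, adjusted p = 0.0249). WWTR1, which encodes TAZ, rose from 1.70, 1.65 and 1.71 to 2.66, 3.08 and 3.44 (0.59, adjusted p = 0.0493) and rose further in empty-vector cells, to 8.22, 8.18 and 8.23 (difference -1.54, adjusted p = 5.87e-05). VGLL4, a competitor of YAP for TEAD binding, fell from 75.3, 72.3 and 77.5 to 43, 52.3 and 54.0 (-0.59, adjusted p = 0.0496). None of these 3 calls held without any 1 of the sgRosa libraries or without sgPOU2F3 replicate 2.

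AP-1 factors, dimers of FOS, JUN and ATF proteins, showed 4 rises and no fall among 13, where 1.98% and 2.11% of all genes rose and fell. FOSL1 went from 1.71, 1.21 and 0.926 scaled TPM to 4.64, 4.29 and 2.95 (1.12, adjusted p = 0.0243), ATF3 from 28.2, 33.6 and 32.0 to 63.4, 59.9 and 48.3 (0.84, adjusted p = 0.0247), FOS from 6.16, 8.17 and 6.09 to 13, 12.6 and 10.6 (0.75, adjusted p = 0.0392) and JUNB from 24.2, 23.6 and 26.1 to 34.0, 42.4 and 47.0 (0.71, adjusted p = 0.0415). Without replicate 1 there were 6 rises and 1 fall (17.3% and 14.1% of all genes), and without any 1 sgRosa library or without sgPOU2F3 replicate 2 there were none. In empty-vector cells 10 of 13 rose (19.3% of all genes), and 10 of 13 differed toward smaller values with the cDNA (14.2%). FOSL1 had the widest gap of the 4: it reached 119, 98.7 and 100.3 in empty-vector cells, a difference of -4.91 (adjusted p = 3.97e-07).

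Mesenchymal and matrix genes included 5 rises and 1 fall among 19, where 1.98% and 2.11% of all genes rose and fell. Beside MGP, fibronectin (FN1) rose from 3.79, 3.11 and 3.36 scaled TPM to 19.6, 23.1 and 19.5 (2.30, adjusted p = 0.000107), thrombospondin (THBS1) from 2.75, 2.33 and 2.40 to 10.6, 11.8 and 12.4 (1.85, adjusted p = 0.000287) and vimentin (VIM) from 17.6, 17.9 and 13.4 to 44.9, 39.7 and 53.8 (1.45, adjusted p = 0.00374). The other rise was TGFBI (0.82, adjusted p = 0.0496) and the fall was decorin, DCN (-1.19, adjusted p = 0.0345), both named after their values were seen. The fall of DCN is the call among the 6 fibroblast genes tested. Without replicate 1 the mesenchymal and matrix list had 6 rises and 2 falls (17.3% and 14.1% of all genes). Without any 1 sgRosa library or sgPOU2F3 replicate 2 it had 4 rises and no fall. In empty-vector cells 13 of the 19 rose and 2 fell (19.3% and 19.7% of all genes), and FN1 reached 95.6, 121 and 105, a difference of -2.80 (adjusted p = 5.06e-07), while 12 of the 19 differed toward smaller values with the cDNA (14.2% of all genes). None of the 16 epithelial junction genes was called with all 6 libraries, where 4.09% of all genes were. Without replicate 1, 1 rose and 2 fell, below the 17.3% and 14.1% of all genes.

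Of the simple keratins of glandular epithelium, none of 3 was called, where 4.09% of all genes were. KRT8 was at 337, 383 and 420.4 scaled TPM against 851, 540.2 and 508 (0.70, adjusted p = 0.0694), KRT18 at 305, 351 and 365 against 665, 449 and 459.7 (0.60, adjusted p = 0.0711) and KRT19 at 41.8, 58.0 and 56.8 against 85.9, 56.4 and 53.2, where the groups overlapped. Without replicate 1, KRT8 and KRT18 passed, at 0.47 (adjusted p = 0.0256) and 0.42 (adjusted p = 0.0279), where 17.3% of all genes rose. In empty-vector cells all 3 rose (19.3% of all genes), with a median of 1.65. All 3 differed toward smaller values with the cDNA (14.2% of all genes). Of 4 basal and squamous genes above the filter, KRT17 rose while the nerve growth factor receptor NGFR (-0.80, adjusted p = 0.0158) and the hemidesmosome integrin ITGB4 (-0.74, adjusted p = 0.0474) fell. Of all genes, 1.98% rose and 2.11% fell. NGFR and ITGB4 lost the call without any 1 sgRosa library or without sgPOU2F3 replicate 2, while KRT17 kept it. KRT17 reached 597, 473 and 512 in empty-vector cells, a difference of -3.24 (adjusted p = 3.19e-06).

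TGF-beta and BMP ligands and antagonists had 5 rises and 2 falls among 22, where 1.98% and 2.11% of all genes rose and fell. Beside TGFB2 and SOSTDC1, the BMP ligand BMP4 rose from 1.55, 1.09 and 0.585 scaled TPM to 8.19, 6.32 and 5.05 (1.86, adjusted p = 0.00434) and the BMP antagonist GREM1 from 0.561, 0.323 and 0.41 to 2.77, 4.17 and 3.75 (1.66, adjusted p = 0.00192). ID2, a BMP target, was the fifth rise (1.25, adjusted p = 0.0251), and LTBP1 (-1.20, adjusted p = 0.0146) and the ligand BMP2 (-1.02, adjusted p = 0.0336) fell, all 3 named after their values were seen. BMP2 and BMP4, ligands of the same receptors, thus moved in opposite directions with all 6 libraries. Without any 1 sgRosa library the list had 4 rises and 0 falls, so the BMP2 call was lost. BMP4 kept its call whichever library was left out. Without sgPOU2F3 replicate 1 the list had 8 rises and 6 falls (17.3% and 14.1% of all genes). GREM1 differed from its empty-vector change by -2.97 (adjusted p = 1.58e-06), and for BMP4 the difference missed the threshold (-0.65, adjusted p = 0.0805).

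The IGF axis had 4 rises among 10 genes (1.98% of all genes), all of them IGF-binding proteins, which hold IGF ligands in the medium. IGFBP3 went from 4.87, 4.34 and 4.26 scaled TPM to 26.5, 23.2 and 22.6 (2.19, adjusted p = 0.000107), IGFBP4 from 5.84, 6.01 and 5.73 to 17.6, 23.5 and 34.3 (1.88, adjusted p = 0.00389), IGFBP5 from 0.795, 1.04 and 1.23 to 3.29, 4.39 and 4.35 (1.31, adjusted p = 0.00454) and IGFBP2 from 2.34, 3.32 and 2.80 to 6.72, 7.09 and 9.25 (1.18, adjusted p = 0.00922). The groups did not overlap in any of these 4. Without replicate 1 the list had 5 rises and 2 falls (17.3% and 14.1% of all genes). The receptor IGF1R was at 32.2, 35.4 and 33.3 against 10.7, 18.8 and 22.2, lower in every sgPOU2F3 library, and missed the threshold (-0.98, adjusted p = 0.0513), while it passed without replicate 1 at -0.69 (adjusted p = 0.00254). In empty-vector cells 8 of 10 rose (19.3% of all genes), and 7 of the 10 differed, all toward smaller values with the cDNA (14.2%). IGFBP4 reached 292, 274 and 270.3 there, a difference of -3.76 (adjusted p = 1.93e-06).

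Interferon-response genes had 4 rises and no fall among 23 (1.98% and 2.11% of all genes), and 3 of the 4 were the neighbouring IFITM genes, which encode membrane proteins that block virus entry. IFITM3 went from 17.1, 23.5 and 25.8 scaled TPM to 249.8, 142 and 122 (2.85, adjusted p = 0.00179) and IFITM2 from 18.3, 20.3 and 24.0 to 175, 91.5 and 88.4 (2.38, adjusted p = 0.0029). IFITM1 was listed at 0 in all 3 sgRosa libraries and at 6.23, 3.05 and 2.81 with sgPOU2F3 (adjusted p = 0.00264). These genes are similar in sequence, so reads may be split among them. IFI6 rose from 12.9, 12.1 and 12.9 to 29.3, 18.4 and 24.7 (0.86, adjusted p = 0.0379). Without replicate 1 the list had 7 rises and 1 fall (17.3% and 14.1% of all genes). IFITM3 rose further in empty-vector cells (-1.14, adjusted p = 0.0283), a difference that lost its call without any 1 of 7 of the 12 libraries (adjusted p of 0.0519 to 0.0694): EV sgRosa 2 or 3, WT sgRosa 2 or 3, EV sgPOU2F3 1 or 3, or WT sgPOU2F3 2. By contrast, IFITM2 rose there by 2.41 with no called difference (-0.045 ± 0.35 SE, adjusted p = 0.934).

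Antigen presentation had 2 rises among 20 (1.98% of all genes), B2M, the light chain of MHC class I, from 198, 252 and 259 scaled TPM to 733, 460.1 and 426 (1.15, adjusted p = 0.0424), and the immunoproteasome subunit PSMB8, from 4.5, 5.92 and 5.79 to 19.7, 9.77 and 10.8 (1.12, adjusted p = 0.0487). Without replicate 1, 7 rose (17.3% of all genes), and without any other single library except sgPOU2F3 replicate 3 none did. In empty-vector cells 17 of 20 rose, where 19.3% of all genes did, and 10 of 20 differed toward smaller values with the cDNA, where 14.2% did. NF-kB and inflammatory genes had 7 rises and no fall among 22 (1.98% and 2.11% of all genes), and without any 1 sgRosa library or sgPOU2F3 replicate 2 they had 2 or 3. The chemokines CXCL1, from 6.67, 3.91 and 6.51 to 27.6, 22.8 and 20.6 (1.90, adjusted p = 0.00263), and CXCL8, from 1.33, 1.52 and 1.48 to 8.84, 5.65 and 4.70 (1.56, adjusted p = 0.00746), were among them beside CXCL13. CXCL8 differed from its empty-vector change by -2.61 (adjusted p = 5.04e-05). Without sgPOU2F3 replicate 1 the NF-kB and inflammatory list had 9 rises and 1 fall (17.3% and 14.1% of all genes). In empty-vector cells 19 of the 22 rose (19.3% of all genes). Between the lines, 14 of them differed toward smaller values with the cDNA and 1, CXCL13, toward larger (14.2% and 12.8% of all genes). Feedback genes of ERK signalling had 4 rises and no fall among 23, where 1.98% and 2.11% of all genes rose and fell: SPRY1, from 5.03, 4.41 and 5.09 to 12.2, 12.6 and 10.6 (1.13, adjusted p = 0.00374), DUSP6, from 6.04, 6.47 and 7.36 to 21.0, 15.4 and 14.7 (1.23, adjusted p = 0.00755), IER3 (0.93, adjusted p = 0.0172) and FOSL1. Without any 1 sgRosa library or sgPOU2F3 replicate 2 this list had 1 or 2 rises. It had 8 rises and 1 fall without sgPOU2F3 replicate 1 (17.3% and 14.1% of all genes). In empty-vector cells 17 of the 23 ERK feedback genes rose and 1 fell (19.3% and 19.7% of all genes). Between the lines, 14 differed toward smaller values with the cDNA and 2 toward larger (14.2% and 12.8% of all genes). SPRY1 was 1 of these 2, and it rose more with the cDNA than without it (0.42, limma interaction, adjusted p = 0.0377).

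The 15 largest falls spanned log2 changes of -4.49 to -1.34, and all but SULT1A3 were smaller in size than the smallest of the 15 rises. COL15A1, a basement membrane collagen, went from 8.62, 8.47 and 8.50 scaled TPM to 1.29, 2.24 and 1.82, with a log2 change of -1.79 ± 0.15 (SE, n = 3 and 3; adjusted p = 0.00109). CNR1, the cannabinoid receptor, went from 16.1, 17.8 and 18.9 to 5.07, 5.46 and 4.58, with a log2 change of -1.62 ± 0.13 (SE, n = 3 and 3; adjusted p = 0.000608). ITGA4, an integrin chain that binds fibronectin and VCAM1, went from 19.1, 16.1 and 20.7 to 6.21, 5.14 and 5.22 (-1.59, adjusted p = 0.00121), and EGFLAM, a matrix protein, from 8.75, 9.32 and 11.3 to 2.65, 2.88 and 2.48 (-1.55, adjusted p = 0.00121). In each of these 4 genes every sgPOU2F3 library lay below every sgRosa library, which the naming rule required. The call held whichever library was left out, which the rule required only for sgPOU2F3 replicate 1.

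KIF26B, a kinesin-like protein, went from 60.5, 57.6 and 59.5 scaled TPM to 12.3, 21.0 and 24.2 (-1.63, adjusted p = 0.00917), CRIM1, a membrane protein that binds BMPs, from 197, 190.6 and 202 to 51.5, 80.9 and 93.5 (-1.41, adjusted p = 0.0146) and PTPRD, a receptor phosphatase, from 22.7, 21.6 and 24.1 to 6.45, 9.66 and 8.78 (-1.37, adjusted p = 0.00379). DIRAS2, a Ras-like GTPase, went from 12.7, 13.4 and 14.8 to 4.37, 5.22 and 3.78 (-1.43, adjusted p = 0.00203), CEACAM19 from 19.2, 19.2 and 20.9 to 4.5, 7.98 and 9.51, PAQR9 from 8.19, 7.0 and 6.76 to 1.62, 2.35 and 2.88 and SKOR1, a corepressor, from 7.32, 6.83 and 7.28 to 1.07, 2.56 and 3.56. In KIF26B, CRIM1, PTPRD, CEACAM19, PAQR9 and SKOR1 the lowest value was that of replicate 1. Without it they fell by 1.35, 1.16, 1.22, 1.10, 1.22 and 1.03 on the log2 scale, all called, which the naming rule required. Without sgRosa replicate 1, KIF26B, CRIM1, CEACAM19, PAQR9 and SKOR1 lost the call, at adjusted p values of 0.0624, 0.0854, 0.1005, 0.0508 and 0.164. CEACAM19 and SKOR1 also lost it without sgPOU2F3 replicate 2 (0.0523 and 0.0723), CRIM1, CEACAM19 and SKOR1 without sgRosa replicate 2 (0.0703, 0.0848 and 0.126), and these 3 and KIF26B without sgRosa replicate 3 (0.0942, 0.110, 0.145 and 0.0644).

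3 of the 15 largest falls rest on entries that are hard to count. SULT1A3 went from 29.9, 11.5 and 28.5 scaled TPM to values under 0.01 in all sgPOU2F3 libraries, but it has a near-identical copy, SULT1A4, and was also under 0.01 in 2 of 3 EV sgPOU2F3 libraries and at 37.5 in the other. TMEM189-UBE2V1 is a read-through of 2 genes (8.71, 10.7 and 9.20 against 1.48, 4.21 and 0.479), and it lost its call without any 1 of the sgRosa libraries (adjusted p of 0.135 to 0.15). RGPD1 belongs to a family of near-identical copies (61.1, 58.7 and 62.0 against 17.5, 19.4 and 28.1). Of the 15 falls, 12 also passed in empty-vector cells and 4 differed between the lines, where 39.0% and 27.0% of all genes did. The 15 were ranked by their change in the same WT libraries that enter the test between lines, so its directions do not rank the lines. All 4 that differed had the larger fall with the cDNA on the log2(TPM + 1) scale. They were CNR1 (-1.19, adjusted p = 0.000272), EGFLAM (-0.72, adjusted p = 0.0102), CRIM1 (-1.17, adjusted p = 0.0161) and PTPRD (-0.90, adjusted p = 0.00927). Without WT sgPOU2F3 replicate 1 these stayed called, and the limma interaction called others of the 15 too. RGPD1 (0.81, adjusted p = 0.0234), PAQR9 (0.67, adjusted p = 0.0251), SKOR1 (0.73, adjusted p = 0.00721) and TRPM5 (0.62, adjusted p = 0.0488) then had the smaller fall with the cDNA. ITGA4 had the larger one (-0.61, adjusted p = 0.0384). In empty-vector cells the sgRosa level was 0.898, 1.05 and 1.02 for CNR1 and 1.64, 1.68 and 1.60 for EGFLAM, below the WT sgRosa libraries, so the pseudocount limits their changes there. With a pseudocount of 0.1 the difference was -0.81 for CNR1 (adjusted p = 0.0337) and -0.22 for EGFLAM, no longer called (adjusted p = 0.598). In the fit to 18 libraries EGFLAM, CRIM1 and PTPRD lost the call (adjusted p = 0.0569, 0.131 and 0.0917), and CRIM1 also did on TPM as deposited (0.0585).

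Growth factor receptors had 2 falls and no rise among 20 (2.11% and 1.98% of all genes), both Eph receptors. EPHA1 went from 42.5, 42.7 and 46.5 scaled TPM to 18.2, 24.5 and 23.1 (-0.98, adjusted p = 0.012) and EPHB2 from 55.2, 56.2 and 54.7 to 22.5, 33.9 and 31.0 (-0.92, adjusted p = 0.0262). EPHB2 was not called in empty-vector cells (0.12, adjusted p = 0.546), and the changes differed by -1.06 (adjusted p = 0.00315). ERBB3, the neuregulin receptor, was at 87.1, 80.8 and 78.4 against 47.4, 58.2 and 61.4 and missed the threshold (-0.56, adjusted p = 0.0514), while it passed without replicate 1 (-0.45, adjusted p = 0.00837). Without replicate 1 the list had 2 rises and 7 falls, where 17.3% and 14.1% of all genes rose and fell, and without any 1 sgRosa library it had none.

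Genes of growth and the ribosome lay higher with sgPOU2F3 in level, and most did not pass with all 6 libraries. None of 79 cytosolic ribosomal protein genes was called, although the list median was 0.98. Without replicate 1, whose ribosomal protein share of 32.8% stood apart, 26 were called higher (17.3% of all genes) and the median was 0.68. In empty-vector cells the median was -0.01 and none was called. Oxidative phosphorylation had 1 rise among 62 (median 0.82) and 42 without replicate 1 (median 0.57), S phase 4 among 43 and then 19, and G2 and M phase 1 among 47 and then 21, with no fall in any of these lists. Of all genes, 1.98% rose with all 6 libraries and 17.3% without replicate 1. Without any 1 sgRosa library or sgPOU2F3 replicate 2, none of the genes of these 4 lists was called. None of 24 housekeeping controls was called with all 6 libraries, but their median was 0.53, and without replicate 1, 9 rose and 1 fell (17.3% and 14.1% of all genes). The medians of ribosomal protein genes depended on the scaling and were 0.50 on TPM as deposited and 0.20 with quantile normalization. The part that library quality has in these values was not tested.

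**Figure D4:**
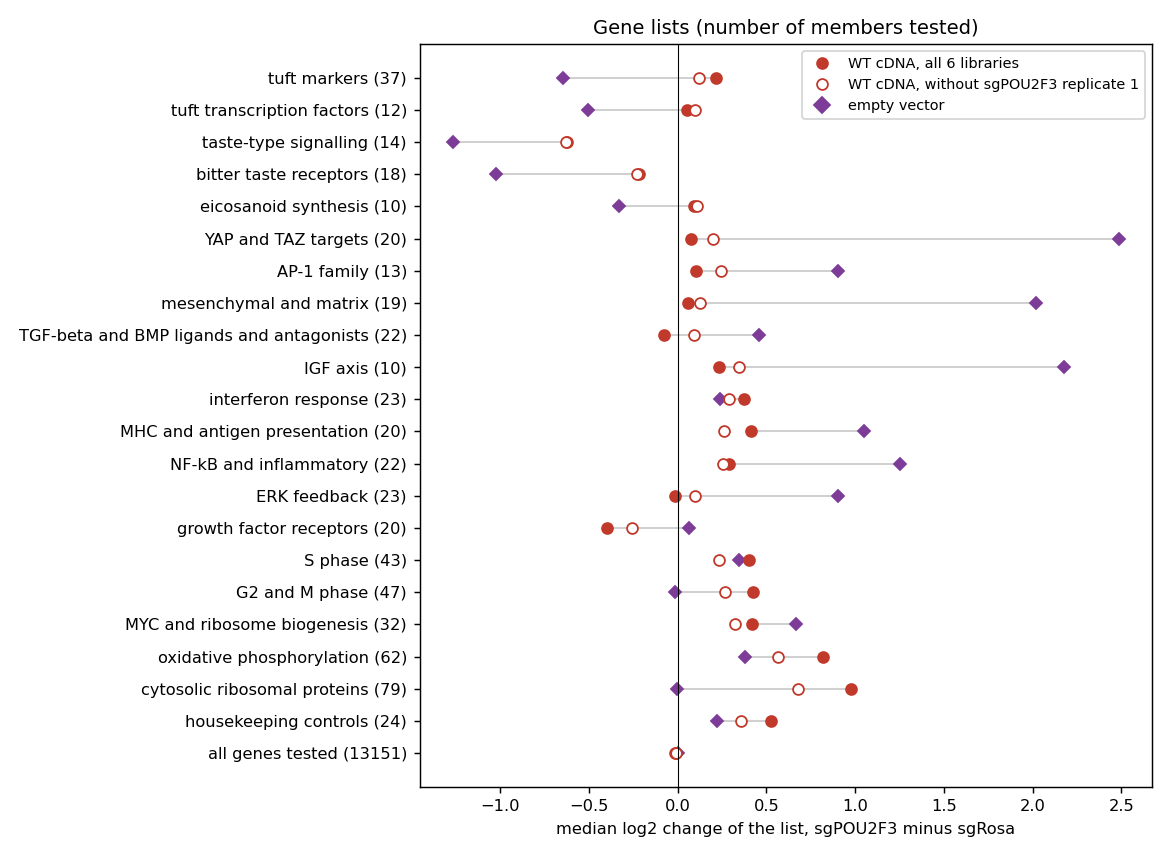
Median log2 change of each gene list, with the number of members tested, in WT cDNA cells with all 6 libraries (filled red), in WT cDNA cells without sgPOU2F3 replicate 1 (open red) and in empty-vector cells (purple). Taste-type signalling lies below 0 in all 3, YAP and TAZ targets and the IGF axis lie near 0 with the cDNA and above 2 without it, and ribosomal proteins lie high with the cDNA only.

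The empty-vector comparison, taken from the fit to 12 libraries, called 2541 genes higher (19.3%) and 2587 lower (19.7%), 39.0% in all. That is more than the 4.09% called with the cDNA in the fit to 6 libraries, but close to the 31.4% without replicate 1, and the fits differ in form, so these counts do not rank the responses. The test of the difference called 1688 genes higher (12.8%) and 1868 lower (14.2%), 27.0% of those tested, and 3327 of these were also called without replicate 1. Of the 261 genes that rose with the cDNA, 181 also rose in empty-vector cells (69.3% of the first list, 7.12% of the second), 11 fell there and 69 were not called. Of the 277 that fell, 184 also fell (66.4% and 7.11%), 12 rose and 81 were not called. Among the 181 shared rises the median log2 change was 1.08 with the cDNA and 1.29 without it, and among the 184 shared falls -0.86 and -0.94. The difference was called for 122 of the 261 rises, 66 with the smaller and 56 with the larger change in the cDNA line, and for 94 of the 277 falls, 31 with the smaller and 63 with the larger fall. Both lists were chosen by their change in the same WT libraries that enter this test, so these splits do not rank the lines.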

How the data were processed

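Total RNA (TRIzol) became TruSeq poly(A) libraries, per the labels' protocols. The authors deposited 1 TPM value per gene and library, and the submitters' processing notes name kallisto and hg38. For kallisto's version, transcripts and strand option, nothing is stated in those notes. Every column summed to 1000000, so depth is unknown and no counting interval can be given. Of 19875 entries, 131 named no gene (104 text fragments, 27 dates; 1.64% to 2.43% of TPM) and were left out. Coordinates came from GENCODE 29 (GRCh38) and promoter sequence from RefSeq (GRCh38.p14, 10597 tested genes matched).

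TPM was divided by median-ratio size factors and log2(TPM + 1) was tested with limma 3.58.1 (R 4.3.3), variance trend, two-sided, Benjamini-Hochberg over all 13151 genes, threshold 0.05. The main fit used 6 libraries, and the difference between lines 12 (WT and empty vector), from which empty-vector values also come. Fits were tested on simulated data. Members and lists were chosen with earlier results of these data known.

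Named by rule were POU2F3, C11orf53, COLCA2, POU2F1, TRPM5 and CYR61, the 15 largest rises and falls (called with and without WT sgPOU2F3 replicate 1, at least 5 TPM in the higher group, no overlap between groups), and up to 4 members of smallest p per described list of 41. Other settings tried were pseudocounts of 0.1 and 5, a filter at 5 TPM or none, TPM as deposited, quantile normalization, 18 libraries, a replicate block, other variance priors, array weights, a removed length trend (lowess, span 0.3) and each library left out.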

Additional observations from a re-analysis of the deposited data

Results flagged for a closer look

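For 20 of the 34 genes named for their own sake (not as list members), the change after sgPOU2F3 differed between WT cDNA and empty-vector cells. The test was the limma interaction, which called 27.0% of all genes. The values below are WT minus empty vector on the log2 scale, n = 3 libraries in each of 4 groups. In the octamer family the fall of the empty-vector line was smaller or absent with the cDNA: POU2F3 1.03, C11orf53 1.00 and COLCA2 0.76. The rise was smaller with the cDNA for CYR61 (-3.33), KRT17 (-3.24), AMOTL2 (-2.97), TGFB2 (-2.66), SPP1 (-1.91), ALPK2 (-1.73), PLK2 (-1.55), ANKRD1 (-1.43), CTGF (-1.38) and IFITM3 (-1.14). It was larger with the cDNA for SOSTDC1 (1.54), CXCL13 (1.66) and TFF3 (3.28), the last not called in empty-vector cells. The fall was larger with the cDNA for CNR1 (-1.19), CRIM1 (-1.17), PTPRD (-0.90) and EGFLAM (-0.72). IFITM3 lost the call without any 1 of 7 libraries and with no filter on low values (adjusted p = 0.0529), CXCL13 and EGFLAM with a pseudocount of 0.1 (adjusted p = 0.127 and 0.598), CRIM1 on TPM as deposited (0.0585), and EGFLAM, CRIM1 and PTPRD in the fit to 18 libraries (0.0569, 0.131 and 0.0917). Without WT sgPOU2F3 replicate 1 all 20 stayed called in the same direction. RGPD1, PAQR9, SKOR1 and TRPM5 were then called too, with the smaller fall with the cDNA, and ITGA4 with the larger.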

How the results depend on the processing

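The counts of changed genes moved more than the genes named. Against 261 higher and 277 lower, limma called 177 and 171 with a pseudocount of 0.1 and 720 and 734 with 5. With no filter it called 160 and 151, and at 5 TPM 124 and 149. On TPM as deposited (where the median of all genes was -0.43) it called 87 and 131. With quantile normalization the counts were 1487 and 1146, and in the fit to 18 libraries 885 and 805. They were 3128 and 3085 with array weights and 521 and 438 with the length trend removed. The fit to 16 libraries, chosen after seeing the data, gave 1956 and 1402. Leaving out each library gave 61 to 2365 higher and 21 to 1992 lower. For the difference between lines, against 1688 and 1868, the counts were 752 and 1508 as deposited (33.3% higher, against 47.5%), 868 and 1003 with 18 libraries, 2919 and 3135 with array weights, and 1085 to 2235 and 1202 to 2460 with each library left out. The cause of these shifts was not tested.

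Same-numbered replicates deviated apart rather than together (correlations of -0.39, -0.25 and -0.22 between WT sgPOU2F3 and WT sgRosa), so the numbers do not pair the libraries. With the replicate block the counts were 122 higher and 133 lower, and 1397 and 1630 for the difference between lines.

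All 15 largest rises stayed called in every alternative in which they were tested. Of the 15 largest falls, 6 lost the call on TPM as deposited: TRPM5 (adjusted p = 0.0655), TMEM189-UBE2V1 (0.0546), KIF26B (0.0513), CRIM1 (0.0553), CEACAM19 (0.0624) and SKOR1 (0.0675). SULT1A3 (0.052) and TMEM189-UBE2V1 (0.12) lost it with 18 libraries, TMEM189-UBE2V1 with 16 (0.0867), and TMEM189-UBE2V1 and SKOR1 with a pseudocount of 0.1 (0.0559 and 0.0552) and with no filter (0.0737 and 0.0688). POU2F3, uncalled otherwise in these fits, passed as deposited (-0.64) and with quantile normalization (-0.86). With each library left out, POU2F3 ranged from -0.34 to 0.0095, C11orf53 from -0.061 to 0.18, COLCA2 from -0.11 to 0.12, POU2AF1 from -0.47 to 0.13, and the CEACAM19 difference from -0.36 to 0.11. Values that changed sign were all but 1 uncalled: POU2F3 0.0095 without sgPOU2F3 replicate 3; C11orf53 -0.38 as deposited, -0.49 with quantile normalization (called, adjusted p = 0.0287), -0.058 with array weights, -0.071 with 16 libraries and -0.061 without sgPOU2F3 replicate 1; COLCA2 -0.032 at 5 TPM, -0.41 as deposited, -0.035 with length removed, -0.11 without sgRosa replicate 1 and -0.090 without sgPOU2F3 replicate 2; POU2AF1 0.022 with quantile normalization, 0.13 with 16 libraries and 0.13 without sgPOU2F3 replicate 1; PTGS1 -0.089, LTA4H -0.14 and KRT19 -0.17 as deposited, and LTA4H -0.0061 with quantile normalization. Differences between lines that changed sign were POU2F1 0.057 with array weights, TRPM5 -0.038 as deposited, DIRAS2 -0.23 with a pseudocount of 5, and CEACAM19 0.17 with array weights, 0.13 with 16 libraries, 0.0090 without EV sgPOU2F3 replicate 2 and 0.11 without WT sgPOU2F3 replicate 1. TPM holds no depth, so precision rests on 3 libraries a group.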

Other observations

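Several lists described nowhere above held 1 to 4 calls with all 6 libraries, where 1.98% of all genes rose and 2.11% fell. Their genes not named above were named after their values were seen. In the Notch pathway the target gene HES1 rose (1.72, adjusted p = 0.00419) and the coactivator MAML3 fell (-0.64, adjusted p = 0.0488), among 22 genes. Among 16 Wnt targets, BMP4 rose and TNFRSF19 (-0.79, adjusted p = 0.0146), EPHB2 and EPHB3 (-1.22, adjusted p = 0.0363) fell. Of 15 BCL2-family genes BCL2 fell (-0.65, adjusted p = 0.0493), and of 26 p53 targets PLK2 rose. Metallothioneins had 1 rise among 9, MT1X (1.32, adjusted p = 0.0363), cholesterol synthesis 1 fall among 23, LSS (-0.72, adjusted p = 0.0414), the integrated stress response 1 rise among 27, ATF3, replication-dependent histones 1 among 42, HIST1H3F (1.00, adjusted p = 0.0481), and MYC and ribosome biogenesis 1 rise among 32, NOP16 (0.87, adjusted p = 0.0406). Hypoxia and glycolysis (33 genes), the calcium pumps, store channels and IP3 receptors (17) and the neuroendocrine list (9) had none, where 4.09% of all genes were called. Without WT sgPOU2F3 replicate 1 these 3 had 6, 4 and 2, below the 31.4% of all genes called in that fit. The genes tested from the packaging line (5), lymphoid and myeloid (4) and endothelial (1) lists had no call with all 6 libraries and median-ratio scaling. Without WT sgPOU2F3 replicate 1 the packaging line list had 1 rise and 2 falls (17.3% and 14.1% of all genes). The lymphoid and myeloid list and the endothelial list had no call in that fit either.

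In taste-type signalling, RGS13 and RGS21, regulators of G protein signalling chosen after their values were seen, were not called with the cDNA, at 0.29 (adjusted p = 0.403) and -0.061 (adjusted p = 0.793). Their changes in empty-vector cells were -2.16 and -2.42, and the differences between lines were 2.43 (adjusted p = 4.01e-05) and 2.34 (adjusted p = 3.05e-05).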
